A study of Mus musculus with 96 samples.

Results

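Gene expression in the cerebellum was compared with that in the cortex of the same 4 young mice. The comparison takes in 8 of the 96 mRNA-seq libraries of the series, 1 cerebellum and 1 cortex library from each of the mice numbered 12, 14, 17 and 20. All 4 are untreated (naive) male C57BL/6J mice, whose samples are labelled 2 months old, although the design text puts young mice at 3 months. The wider series tests whether plasma of young mice, given by injection, alters gene expression in older brains, and no mouse used here for the region comparison had an injection. The cerebellum and cortex of 3 naive male C57BL/6J mice labelled 18 months (mice 3, 6 and 9) served as a repeat in other animals, and the other 25 mice of the first experiment as a count of directions. Those 25 include the 3 naive ones, and the other 22, labelled 18, 19 or 22 months, had injections of PBS or young plasma. Each library is bulk RNA of a homogenised piece of tissue, so fewer cells of a type and less RNA per cell cannot be told apart. The labels do not say which area of the cortex was taken.

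The cerebellum is built around 2 neurons: granule cells, the small excitatory neurons that make up most of its cells, and Purkinje cells, the large inhibitory neurons that carry its output and receive the granule cells' parallel fibres. Bergmann glia, a specialised astrocyte, wrap the Purkinje synapses. The cortex is a forebrain structure of layered excitatory projection neurons with several kinds of GABA-releasing interneuron, and the adult neurons of both regions keep transcription factors from the embryonic hindbrain or forebrain they arose from.

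The cerebellum libraries held 3637025 to 5515064 counts and the cortex libraries 5053543 to 14193346. Levels are in CPM, in which each library sums to 1000000, with the SD over 4 mice. CPM carry no TMM scaling factors, which the fitted differences below do use. Differences are log2 fold changes, cerebellum minus cortex, so a negative value is a gene higher in cortex. They come from edgeR's quasi-likelihood test with the mouse as a block, and all adjusted p-values are Benjamini-Hochberg values of that test over every gene tested. The standard error (SE) after a difference is worked out from the size of the difference and the test's F statistic. For genes with few counts in 1 region this SE can be smaller than the counting error, and does not measure the spread there. Gabra6, the GABA-A receptor subunit of cerebellar granule cells, served as the check of the tissue labels: it had 544, 504, 503 and 462 CPM in the cerebellum of mice 12, 14, 17 and 20 and 0, 0.196, 0 and 0 CPM in the cortex of the same mice. Mitochondrially encoded transcripts took 1.66 to 1.83% of the counts in cerebellum and 2.54 to 2.79% in cortex.

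Some libraries were high in genes known from neighbouring tissue. Ttr, the transthyretin made by the choroid plexus, had 4.71, 981, 12.1 and 315 CPM in the cerebellum of mice 12, 14, 17 and 20, so that mice 14 and 20 stood apart. The cerebellum of mouse 14 was also highest in the serotonin neuron genes Tph2 and Slc6a4. Tph2 had 0.544, 6.01, 0 and 1.32 CPM and Slc6a4 0, 2.73, 0.275 and 0 CPM in the cerebellum of mice 12, 14, 17 and 20. The cerebellum of mouse 20 also held more of Dbh and Slc6a2, the noradrenaline synthesis enzyme and transporter of the locus coeruleus (Dbh 0, 0.182, 0 and 7.25 CPM and Slc6a2 0, 0.182, 0.275 and 6.38 CPM in mice 12, 14, 17 and 20), and of Slc17a6, the vesicular glutamate transporter VGLUT2 (16.7, 21.9, 19.8 and 70.3 CPM). In the cortex of mouse 14, Cdhr1, a cadherin of olfactory bulb mitral cells, and Trh, the thyrotropin-releasing hormone gene, were high: the 4 cortices had 1.97, 14.4, 1.39 and 0.380 CPM of Cdhr1 and 1.27, 8.62, 0.594 and 0.570 CPM of Trh. The summed level of the olfactory bulb list did not set mouse 14 apart, with 140.1, 162.5, 164 and 147 CPM in the cortices of mice 12, 14, 17 and 20. All 4 cortex libraries held genes of striatal medium spiny neurons, among them Adora2a at 51.2, 33.1, 54.4 and 27.2 CPM. Slc6a2, Tph2, Slc6a4, Trh, Cdhr1 and these libraries were singled out after their values were seen, and the part of such tissue in the results was not tested beyond the values given. Where leaving out 1 mouse moved a fitted difference printed below by over 1.5 times, the value without that mouse is given in the same paragraph.

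Most of the expressed genes differed between the regions. Of 15669 genes tested, 10107 (64.5%) passed an adjusted p of 0.05, with 4858 (31.0%) higher in cerebellum and 5249 (33.5%) higher in cortex. Many of these differences were small: 3375 of the first and 3136 of the second were under 2-fold. A test against a 2-fold change left 2554 genes (16.3%), of which 965 (6.16%) were higher in cerebellum and 1589 (10.1%) higher in cortex. Differences of over 16-fold were estimated for 145 of the genes called higher in cerebellum and 322 of those called higher in cortex. Without mice 14 and 20, 2665 genes were beyond 2-fold. That fit holds only mice 12 and 17, which barely measure the spread, so its count cannot be set against that of all 4 mice. The median difference over all genes tested was -0.01. Scaling by library size alone moved the differences by a median of 0.17 towards cerebellum, and 61.98% of the genes then called were higher in cerebellum, against 48.07% with TMM factors. A list's count below can be read against the 31.0% and 33.5% of all genes that passed in each direction.

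**Figure D1:**
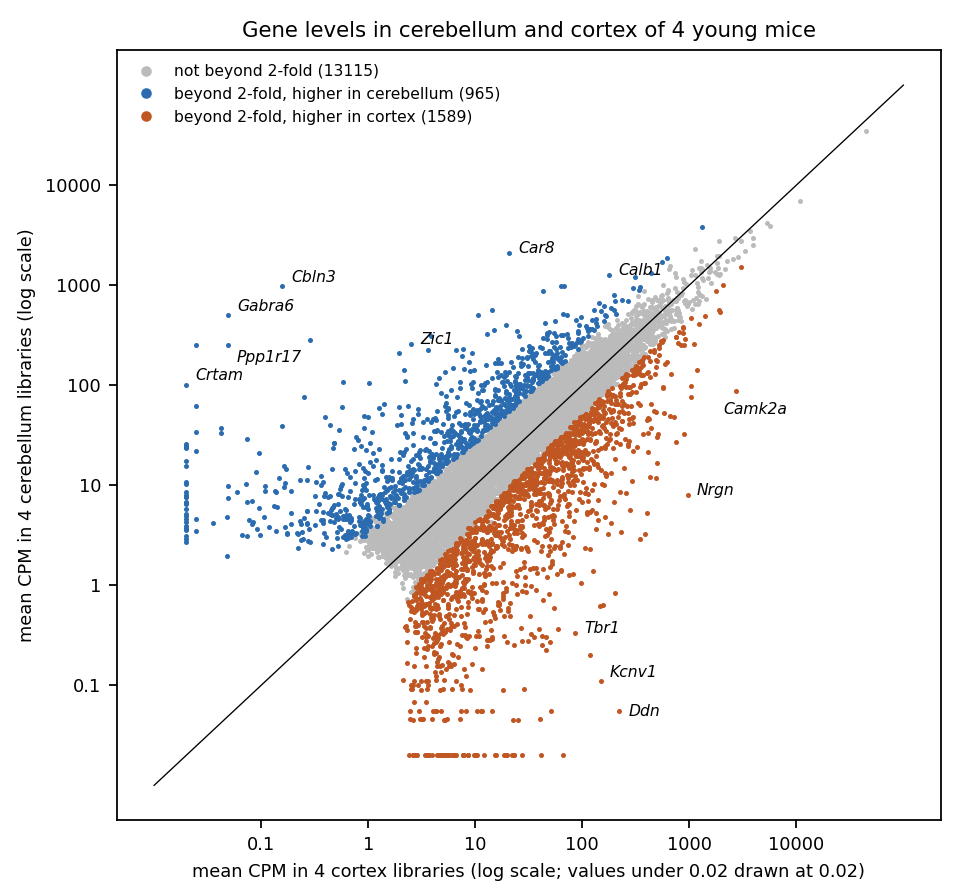
Mean CPM of each of the 15669 genes tested in the 4 cerebellum libraries (vertical axis) against the 4 cortex libraries (horizontal axis), both on log scales. Blue and orange points are the 965 and 1589 genes beyond 2-fold higher in cerebellum and in cortex, and grey points the other 13115. The points at the left edge and along the bottom are genes with almost no counts in the other region.

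The largest differences towards cerebellum were in genes with almost no cortical counts. Cbln3, a secreted synapse organiser of granule cells on chromosome 14 from 55878913 to 55884392 (GRCm38), had 1075, 955, 991 and 905 CPM in the cerebellum of mice 12, 14, 17 and 20 and 0.141, 0.490, 0 and 0 CPM in the cortex of the same mice. The 7 cortical counts of Cbln3 make a ratio of 4883-fold (95% counting interval 2369 to 12146) over the pooled libraries, and its fitted difference was 11.99 ± 0.20 (adjusted p = 6.16e-13). Gabra6, on chromosome 11 from 42306437 to 42321072, had 9692 counts in cerebellum and 2 in cortex, a pooled ratio of 8769-fold (95% counting interval 2427 to 72417) and a fitted difference of 12.56. Both cortical counts were from mouse 14. Ppp1r17, a phosphatase inhibitor of Purkinje cells on chromosome 6 from 56017497 to 56032689, had 255 ± 26.2 CPM in cerebellum and 0.0490 ± 0.0979 CPM in cortex, with 2 cortical counts in all, both from mouse 14, and differed by 11.58. Fat2, a giant cadherin of granule cells, had 284 ± 20.3 CPM in cerebellum and 0.286 ± 0.244 CPM in cortex and differed by 9.37 ± 0.17 (adjusted p = 6.16e-13). Without mouse 12, the fitted difference was 11.86 for Gabra6 and 10.92 for Ppp1r17. The fit without mouse 14 gave 13.15 for Cbln3, 14.58 for Gabra6 and 13.56 for Ppp1r17.

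Further genes of this kind included transcription factors and a transporter. Crtam, known as a receptor of cytotoxic lymphocytes, lies on chromosome 9 from 40969691 to 41004628 and had 106, 99.9, 98.2 and 99.1 CPM in the 4 cerebella and no count in any cortex, which makes it at least 1169-fold higher (floor of 3 counts over the cortex libraries). Slc6a5, the glycine transporter GlyT2 of glycinergic neurons such as Golgi cells, had 19.2, 23.0, 25.6 and 31.9 CPM and no cortical count (at least 283-fold higher). Dao, the D-amino acid oxidase that degrades D-serine, had 26.8, 22.4, 25.6 and 22.6 CPM and no cortical count (at least 282-fold higher), and so did the homeobox gene Uncx, with 25.7, 31.2, 15.1 and 22.9 CPM (at least 285-fold higher). Lhx1, a LIM homeobox factor that Purkinje cells keep, had 61.9 ± 8.12 CPM in cerebellum and 0.0245 ± 0.0490 CPM in cortex, and Lhx1os, the noncoding gene beside it on the opposite strand, had 34.4 ± 7.23 CPM in cerebellum and 0.0245 ± 0.0490 CPM in cortex. The annotated positions of Lhx1 (chromosome 11 from 84518284 to 84525535) and Lhx1os (84525660 to 84535831) do not overlap. The libraries do not mark strand, and the annotation used for the counts is not given. Cnpy1, a regulator of FGF signalling at the midbrain-hindbrain boundary, had 251 ± 30.5 CPM in cerebellum and 0.0245 ± 0.0490 CPM in cortex, and the kinase gene Nrk 37.3 ± 6.20 CPM in cerebellum and 0.0421 ± 0.0499 CPM in cortex. Lhx1, Lhx1os and Cnpy1 had cortical counts in mouse 14 alone.

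The largest differences towards cortex were likewise in genes with almost no counts on the other side. Ddn, which encodes the postsynaptic protein dendrin and lies on chromosome 15 from 98803777 to 98809490, had 0, 0, 0 and 0.220 CPM in the cerebellum of mice 12, 14, 17 and 20 and 224, 263, 194 and 208 CPM in the cortex of the same mice. It had 7951 cortical counts and 1 cerebellar count, a ratio of 4394-fold (95% counting interval 788 to 173577) and a fitted difference of -11.79. That count was from the cerebellum of mouse 20. Kcnv1, a silent potassium channel subunit, had 0.110 ± 0.220 CPM in cerebellum and 149.5 ± 17.0 CPM in cortex and differed by -10.41, and its 2 cerebellar counts were both from mouse 20. Rtn4rl2, a Nogo receptor homologue, Crhbp, the binding protein of corticotropin-releasing hormone, Fezf2, which specifies deep-layer projection neurons, and Dlx1, a factor of forebrain interneurons, had no cerebellar count. Their means in cortex were 23.3, 22.7, 22.9 and 22.0 CPM, which sets them at least 149.9, 146, 150.3 and 145-fold higher there. The largest cortical differences also included Rgs14, a regulator of G-protein signalling (51.1 ± 13.3 CPM in cortex), Crym, a thyroid hormone binding protein (40.3 ± 16.8), the activity-regulated factor Egr3 (119 ± 11.7) and Lrrc10b (25.2 ± 8.81). Each of these 4 was below 1 CPM in every cerebellum, with counts in mouse 20 alone for Rgs14, mouse 14 alone for Crym and mouse 12 alone for Lrrc10b. None of the 24 genes with the largest differences overlapped between the 4 cerebella and the 4 cortices, which was a condition for naming them. The 4 and 4 libraries of all genes tested were apart in CPM in 61.1% of cases, 38.1% with cerebellum higher and 23.0% with cortex higher. CPM carry no TMM factors, and scaling without them moved differences by a median of 0.17 towards cerebellum. With TMM factors, 31.0% of genes passed higher in cerebellum and 33.5% higher in cortex. Leaving out mouse 20 gave a difference of -13.79 for Ddn and -13.16 for Kcnv1.

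**Figure D2:**
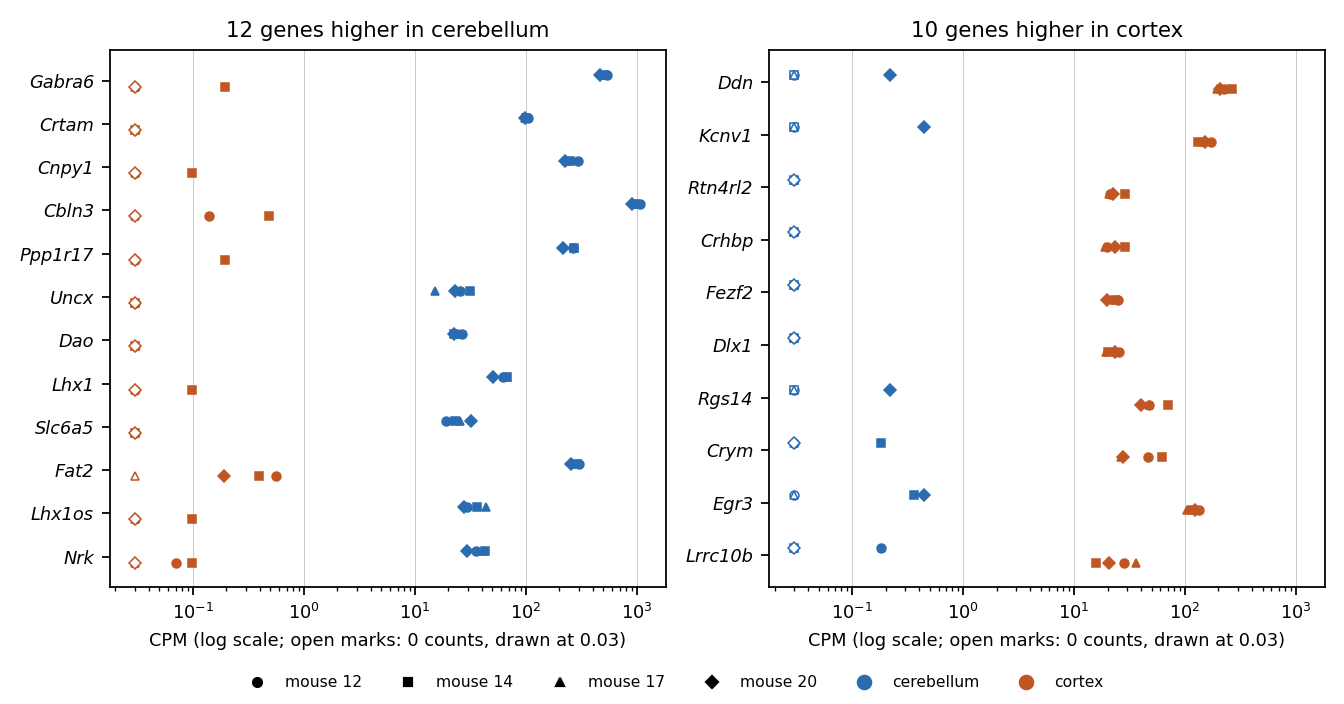
CPM in every library, on a log scale, of 12 genes with the largest difference towards cerebellum and 10 with the largest towards cortex. Blue marks are cerebellum and orange marks cortex, shapes are the 4 mice, and open marks are libraries with 0 counts, drawn at 0.03. The 4 marks of the higher region lie close together for most genes, while Crym in cortex runs from 26.3 to 61.7 CPM and Uncx in cerebellum from 15.1 to 31.2.

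The sequence before the gene start varied widely among genes of 1 direction. A RefSeq promoter window (GRCm38.p6) matched 10935 of the 15669 genes tested, and the 250 bases before the start were read from it. A CG dinucleotide, the site of DNA methylation in mammals, occurred a median of 16 times in these windows, and a median of 12 times both in the 597 windows of genes beyond 2-fold higher in cerebellum and in the 1037 of those higher in cortex. The E-box CAGCTG, which reads the same on both strands, was in 16.8% of the cortex windows, 11.7% of the cerebellum windows and 11.9% of all tested. The E-box CAGATG, or its reverse complement CATCTG, was in 11.1%, 12.6% and 9.85%. One gene of a signalling molecule and one of a transcription factor are shown for each direction, 5′ to 3′ on the gene's strand, with every CG in capitals. They were chosen after their values were seen, among windows that overlap no annotated gene, to show the range within each direction.
Gabra6: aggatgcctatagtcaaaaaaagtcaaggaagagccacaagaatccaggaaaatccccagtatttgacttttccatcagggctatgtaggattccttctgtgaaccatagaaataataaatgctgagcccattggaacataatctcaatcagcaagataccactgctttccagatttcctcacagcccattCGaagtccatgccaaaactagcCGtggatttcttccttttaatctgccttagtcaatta
Barhl2: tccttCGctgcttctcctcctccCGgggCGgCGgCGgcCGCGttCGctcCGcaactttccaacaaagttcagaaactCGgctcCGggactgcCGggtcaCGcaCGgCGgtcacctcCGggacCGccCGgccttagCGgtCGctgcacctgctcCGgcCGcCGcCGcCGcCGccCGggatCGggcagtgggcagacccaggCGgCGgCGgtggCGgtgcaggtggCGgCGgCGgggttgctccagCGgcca
Vip: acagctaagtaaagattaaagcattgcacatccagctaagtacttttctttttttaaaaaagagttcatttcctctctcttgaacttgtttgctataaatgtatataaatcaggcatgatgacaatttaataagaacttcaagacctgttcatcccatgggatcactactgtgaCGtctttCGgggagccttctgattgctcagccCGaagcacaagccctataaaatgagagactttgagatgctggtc
Lhx2: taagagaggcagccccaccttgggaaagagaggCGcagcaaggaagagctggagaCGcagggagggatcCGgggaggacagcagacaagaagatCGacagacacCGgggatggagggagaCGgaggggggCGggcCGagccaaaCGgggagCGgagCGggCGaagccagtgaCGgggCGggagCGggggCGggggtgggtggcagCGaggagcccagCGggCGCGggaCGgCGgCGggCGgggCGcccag
The window of Gabra6 (chr11:42321073-42321322, minus strand) holds 2 CG and that of the hindbrain homeobox gene Barhl2 (chr5:106458167-106458416, minus strand) holds 36. Barhl2 had 38.9 ± 7.09 CPM in cerebellum and 0.158 ± 0.231 CPM in cortex and differed by 7.35 ± 0.27. On the cortical side, the window of the neuropeptide gene Vip (chr10:5638968-5639217, plus strand) holds 3 CG, and that of the forebrain homeobox gene Lhx2 (chr2:38339031-38339280, plus strand) holds 25. Vip had 0.600 ± 0.788 CPM in cerebellum and 54.3 ± 10.1 CPM in cortex, and Lhx2 0.366 ± 0.518 CPM in cerebellum and 39.5 ± 1.77 CPM in cortex. These counts describe the letters, not methylation or binding. With mouse 14 left out, the value was 8.34 for Barhl2.

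Markers of granule cells, Purkinje cells and Bergmann glia were higher in cerebellum almost throughout. Of 18 granule cell genes, 17 were higher in cerebellum, 16 of them beyond 2-fold, and none was lower, with a median difference of 5.00 against -0.01 over all genes. Neurod1, a bHLH factor of granule cells, had 607, 609, 565 and 502 CPM in the cerebellum of mice 12, 14, 17 and 20 and 11.6, 16.0, 19.0 and 11.2 CPM in the cortex of the same mice. The lowest cerebellum was above every cortex, and the difference was 5.18 ± 0.12 (adjusted p = 3.38e-12). Calb2, the calcium buffer calretinin, differed by 5.41 ± 0.17, Pax6, a factor of granule cell precursors, by 3.68 ± 0.14, and Gabrd, the extrasynaptic delta subunit, by 1.01 ± 0.09. The neuronal splicing factor Rbfox3 was the 1 granule cell gene that did not pass (387 ± 36.9 CPM in cerebellum and 334 ± 50.9 CPM in cortex, adjusted p = 0.677).

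Of 24 Purkinje cell genes, 23 were higher in cerebellum, 21 beyond 2-fold, with a median of 2.67. Car8, a carbonic anhydrase-related protein that binds the IP3 receptor, was the most abundant, with 2253, 2129, 2059 and 1883 CPM in the cerebellum of mice 12, 14, 17 and 20 and 21.3, 17.5, 19.4 and 24.9 CPM in the cortex of the same mice. It differed by 6.49 ± 0.11 (adjusted p = 6.16e-13). Pcp2, a G-protein regulator of Purkinje cells, differed by 6.19 ± 0.12, Rgs8 by 3.78 ± 0.07, the calcium buffer Calb1 by 2.67 ± 0.08, and the orphan nuclear receptor Rora by 1.69 ± 0.07. Foxp2, a forkhead factor of Purkinje cells and of deep cortical layers, was lower in cerebellum (-0.68 ± 0.16, adjusted p = 0.00297), but did not pass with the hippocampus libraries in the fit (adjusted p = 0.229). All 10 Bergmann glia genes were higher in cerebellum, 6 beyond 2-fold, with a median of 1.29. Gdf10, a growth factor of the BMP family, led them with 136 ± 9.94 CPM in cerebellum and 5.25 ± 0.463 CPM in cortex and a difference of 4.55 ± 0.10, ahead of Gria4, an AMPA receptor subunit (2.09 ± 0.06), and Hopx (1.97 ± 0.19). Of 11 genes of other cerebellar neurons tested, 7 were higher. They included Eomes, a marker of unipolar brush cells (33.5 ± 5.40 CPM in cerebellum and 0.0421 ± 0.0499 CPM in cortex), and Tfap2b, a factor of inhibitory precursors (49.4 ± 3.97 CPM in cerebellum and 0.913 ± 0.286 CPM in cortex).

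**Figure D3:**
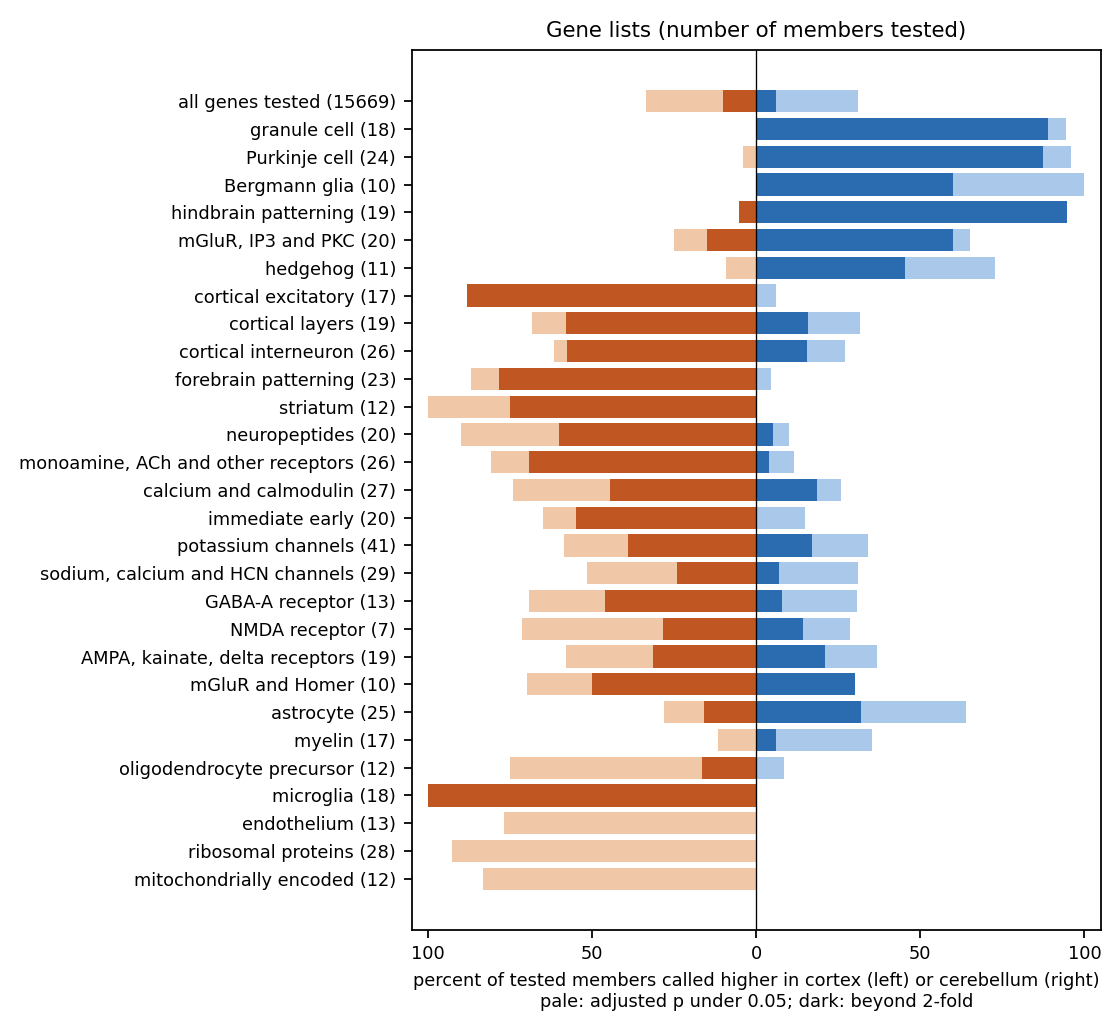
Percentage of the tested members of each gene list called higher in cortex (left) or in cerebellum (right), with all 15669 genes in the top bar. Pale bars are genes with an adjusted p under 0.05 and dark bars those beyond 2-fold. The granule, Purkinje, Bergmann and hindbrain lists lie almost wholly to the right, and the cortical excitatory, forebrain, striatum, neuropeptide and microglia lists to the left.

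Markers of cortical excitatory neurons were lower in cerebellum, 15 of 17 tested and all 15 beyond 2-fold, with a median of -4.05. Camk2a, the alpha subunit of calcium/calmodulin-dependent kinase II, had 76.2, 76.9, 80.6 and 114 CPM in the cerebellum of mice 12, 14, 17 and 20 and 2924, 2329, 2759 and 2969.9 CPM in the cortex of the same mice. The 4 cerebella lay at 113.9 CPM or below and the 4 cortices at 2329 CPM or above, a difference of -5.17 ± 0.10 (adjusted p = 8.12e-13). Nrgn, the calmodulin-binding protein neurogranin, had 0.907, 2.55, 1.65 and 26.8 CPM in the cerebella and 805, 727, 1180.2 and 1158 CPM in the cortices. The cerebellum of mouse 20 was far above the other 3, and the difference of -7.29 ± 0.41 became -9.14 without mouse 20. Tbr1, a T-box factor of deep-layer neurons, had 0.337 ± 0.236 CPM in cerebellum and 86.2 ± 5.97 CPM in cortex. Slc17a7, the vesicular glutamate transporter VGLUT1, which granule cells also use, differed by less (-1.51 ± 0.08). The bHLH gene Neurod2 went the other way, with 113 ± 13.2 CPM in cerebellum and 64.1 ± 6.35 CPM in cortex and a difference of 0.65 ± 0.08 (adjusted p = 1.68e-05). A fit without mouse 14 or without mouse 20 called 2 of the 17 genes higher in cerebellum.

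Markers of cortical layers were more mixed, with 13 of 19 lower and 6 higher in cerebellum and a median of -1.63. Lamp5 of upper layers and interneurons (-6.34 ± 0.23), Bcl11b of layer 5 (-5.65 ± 0.25) and Cux2 of upper layers (-1.63 ± 0.12) were lower. The 6 that were higher in cerebellum, Cux1, Pcp4, Sulf1, Nxph4, Calb1 and Etv1, include genes that cerebellar neurons also use. Cux1 (0.26) did not pass without mouse 12 or without mouse 14, nor with no mouse block (adjusted p = 0.135), with DESeq2 (0.0748) or with the hippocampus libraries in the fit (0.505), and Pcp4 did not pass in the last (0.0758). Cortical interneuron genes split in the same way. Of 26 tested, 16 were lower in cerebellum and 7 higher, with a median of -3.62. Dlx1, Dlx2, Dlx5, Dlx6 and the peptide genes Cort and Tac2 had no cerebellar count at all. Sst, the somatostatin gene, had 1.45, 5.29, 2.47 and 17.8 CPM in the cerebellum of mice 12, 14, 17 and 20 and 179.9, 225, 194 and 187 CPM in the cortex of the same mice, with the highest cerebellar value in mouse 20, and differed by -5.11. Pvalb, the calcium buffer parvalbumin that Purkinje cells and molecular layer interneurons also hold, was higher in cerebellum (334 ± 39.9 CPM in cerebellum and 46.8 ± 15.2 CPM in cortex, difference 2.72 ± 0.16), as were Reln, the secreted glycoprotein reelin (2.34 ± 0.09), Kit (2.31 ± 0.08) and Nos1 (1.51 ± 0.15). Gad1, which makes GABA, was higher by 0.56 ± 0.07, while Gad2 had 145 ± 12.1 CPM in cerebellum and 127 ± 7.93 CPM in cortex (adjusted p = 0.766). All 12 striatal genes tested were lower in cerebellum, with a median of -4.15, and their summed level was 891.9 to 1454 CPM in the cortex libraries and 384 to 409 CPM in the cerebellum libraries. The part that adjoining striatum in the cortex samples takes in the cortical values was not tested. Without mouse 20, the fitted difference was -7.09 for Lamp5, -6.32 for Bcl11b and -6.17 for Sst.

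Over the members tested, transcription factors of embryonic patterning had the largest list medians of the 44 lists. Of 32 hindbrain and cerebellar factors, 19 had enough counts to be tested. A factor almost absent from cortex was tested only through its cerebellar counts, which fixed its direction. Of the 19 tested, 18 were higher in cerebellum, all beyond 2-fold, with a median of 6.50 (6.30 with genes at 0 in cortex set at their bound). The Zic zinc finger genes, made by granule cells and their precursors, were among them. Zic1, on chromosome 9 from 91358058 to 91365810, had 273, 273, 276 and 202 CPM in the cerebellum of mice 12, 14, 17 and 20 and 3.24, 2.06, 2.77 and 2.09 CPM in the cortex of the same mice, a difference of 6.46 ± 0.11 (adjusted p = 6.16e-13), and Zic2, Zic4 and Zic5 differed by 4.83, 4.52 and 3.95. En2, an engrailed homeobox gene of the midbrain-hindbrain boundary, had 29.1 ± 3.32 CPM in cerebellum and 0.0734 ± 0.147 CPM in cortex and differed by 8.00. Irx2, Irx5, Pax3, Lhx5, Barhl1 and Uncx had no cortical count. Meis2 was the exception, with 3.63, 4.01, 6.32 and 19.6 CPM in cerebella and 123, 100.5, 101 and 99.6 CPM in cortices, and a difference of -3.93 ± 0.29 that became -4.77 without mouse 20. Its paralogue Meis1 differed the other way (140.1 ± 10.5 CPM in cerebellum and 8.90 ± 2.98 CPM in cortex, difference 3.79 ± 0.14). The fit without mouse 12 gave 7.32 for En2. Leaving out mouse 14 gave a difference of 10.42 for En2.

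Of 25 forebrain factors, 23 had enough counts to be tested. Those without a cerebellar count were tested only through their cortical counts, which fixed their direction. Of the 23 tested, 20 were lower in cerebellum and 18 of them beyond 2-fold, with a median of -6.86 (-5.03 with genes at 0 in cerebellum set at their bound). Fezf2, Dlx1, Dlx2, Dlx5, Dlx6, Emx1 and Emx2 had no count in any of the 4 cerebella, which together held 19187264 counts. Emx1, a homeobox gene of cortical excitatory precursors, had 15.0, 13.6, 23.2 and 22.1 CPM in the 4 cortices (at least 108-fold higher there), and Emx2 had 5.57, 6.17, 7.32 and 5.51 CPM (at least 38.3-fold). Zbtb18, a transcriptional repressor, was the 1 forebrain gene higher in cerebellum (137 ± 19.9 CPM in cerebellum and 74.2 ± 9.04 CPM in cortex, difference 0.72 ± 0.10, adjusted p = 3.18e-05), and 2 were called so without mouse 14 or without mouse 20.

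Receptors for glutamate differed by subunit rather than as a whole. NMDA receptors pair the obligatory GluN1 with GluN2 subunits that set their kinetics. Of 7 NMDA receptor genes, 2 were higher in cerebellum and 5 lower, with a median of -0.59. Without mouse 12, 14 or 17, only 1 of the 7 was called higher. Grin2c, the GluN2C gene of mature granule cells, had 239, 204, 193 and 188 CPM in the cerebellum of mice 12, 14, 17 and 20 and 38.0, 30.9, 29.5 and 39.2 CPM in the cortex of the same mice, and Grin2b, the GluN2B gene, had 19.0, 20.4, 19.5 and 26.4 CPM in the cerebellum of mice 12, 14, 17 and 20 and 394, 410.4, 415 and 417 CPM in the cortex of the same mice. Both sets were without overlap, in opposite directions: 2.42 ± 0.09 for Grin2c and -4.44 ± 0.09 for Grin2b (adjusted p = 1.24e-10 and 1.24e-12). Grin2a and Grin1 were lower by less (-1.15 ± 0.07 and -0.59 ± 0.08). Per kilobase of exon, Grin2c took 77.0 ± 2.69% in the cerebellum and 14.9 ± 1.52% in the cortex of the 4 GluN2 genes (mean ± SD over 4 libraries).

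Of 19 AMPA, kainate and delta receptor genes and their auxiliary subunits, 7 were higher in cerebellum and 11 lower, with a median of -0.75. Gria4 and the auxiliary subunit gene Cacng5 were higher, with differences of 2.09 and 2.79 ± 0.21. The auxiliary subunit genes Cacng3, Cnih2 and Cnih3 were lower, with differences of -4.10 ± 0.12, -2.59 ± 0.08 and -4.08 ± 0.26. Gria2 and Gria3 were lower (-0.80 ± 0.06 and -1.39 ± 0.07), and Gria1 was slightly higher (0.29 ± 0.06, adjusted p = 0.00165), but did not pass with the hippocampus libraries in the fit (adjusted p = 0.323). With mouse 20 left out, the value was -4.82 for Cnih3.

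Metabotropic glutamate receptors and their Homer scaffolds also differed within a family, with 3 of 10 genes higher in cerebellum, 7 lower and a median of -1.39. Grm4, the mGluR4 gene of parallel fibre endings, had 349.9 ± 25.4 CPM in cerebellum and 24.6 ± 4.30 CPM in cortex and differed by 3.66 ± 0.09. Grm5, which couples to phospholipase C, had 13.4 ± 9.74 CPM in cerebellum and 185 ± 8.69 CPM in cortex and differed by -4.02 ± 0.24. The receptor genes Grm2, Grm3, Grm7 and Grm8 were lower, by 1.06 to 1.87 in size. Homer3 was higher (356 ± 29.0 CPM in cerebellum and 14.8 ± 1.73 CPM in cortex) and Homer1 and Homer2 were lower (-2.36 ± 0.09 and -1.96 ± 0.11). Homer3 thus took 94.2 ± 0.275% in the cerebellum and 13.8 ± 2.35% in the cortex of the Homer transcripts per kilobase. Without mouse 20, the fitted difference was -4.63 for Grm5.

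GABA-A receptors followed the alpha subunits. Of 13 GABA-A receptor genes tested, 4 were higher in cerebellum and 9 lower, with a median of -0.86. Gabra6 took 64.0 ± 2.00% in the cerebellum and 0.0144 ± 0.0288% in the cortex of the 6 alpha subunit genes per kilobase. Gabra5, Gabra3, Gabra4 and Gabra2 were lower, with differences of -4.32 ± 0.29, -3.09 ± 0.17, -1.90 ± 0.08 and -1.22 ± 0.08. Gabrb2 and Gabrd, partners of Gabra6 in granule cells, were higher (0.62 ± 0.11 and 1.01 ± 0.09), and Gabrb1 was lower (-1.36 ± 0.09). The fit without mouse 20 gave -5.09 for Gabra5.

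**Figure D4:**
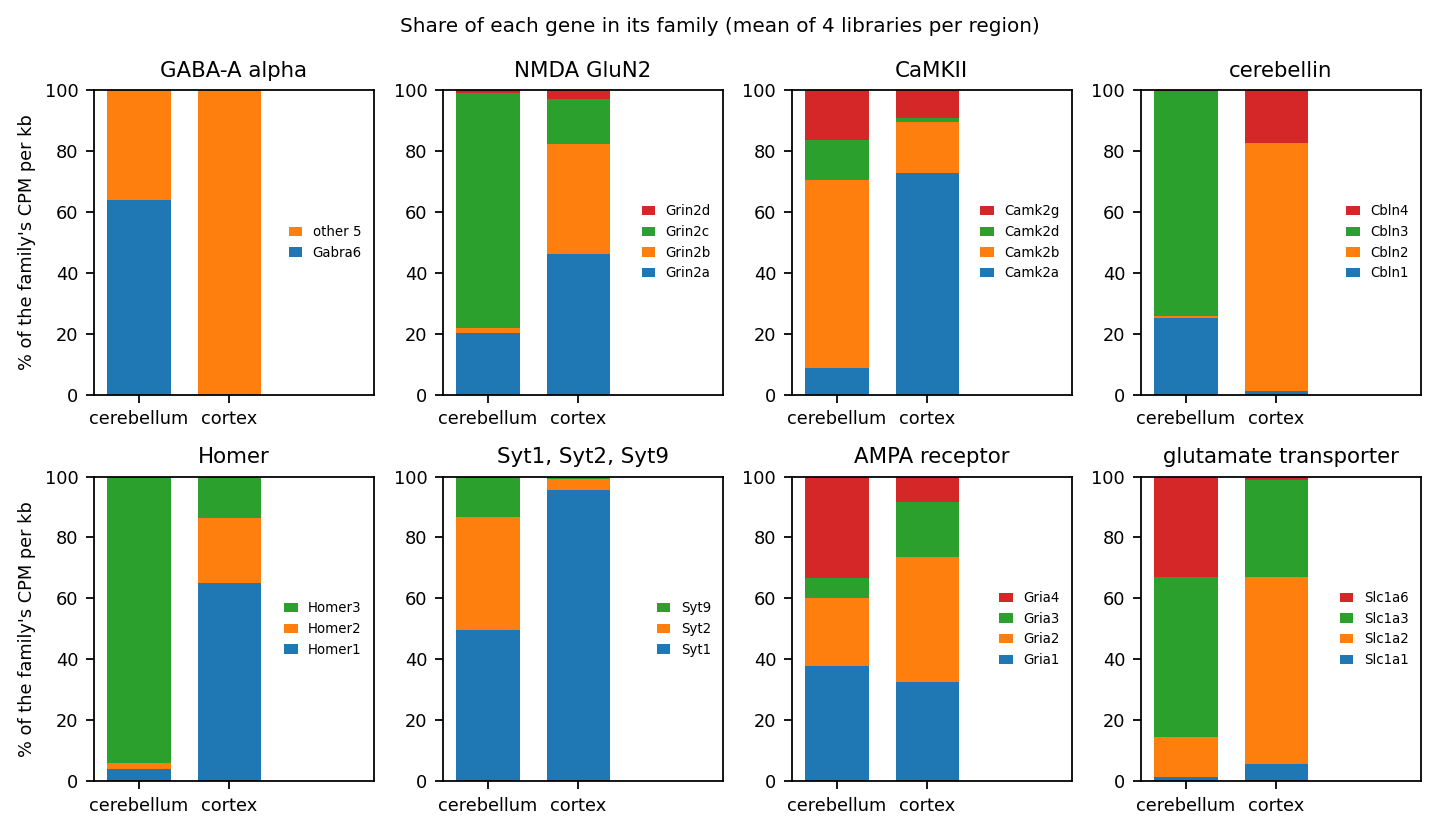
Share of each gene in 8 families, as the percentage of the family's summed CPM per kilobase of exon, for cerebellum and cortex (mean of 4 libraries per region). The GABA-A panel shows Gabra6 against the other 5 alpha genes summed. Gabra6, Grin2c, Cbln3 and Homer3 fill most of the cerebellum bar of their family. In cortex Grin2a with Grin2b, Cbln2 and Homer1 take the places of the last 3.

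The cerebellins, secreted adaptors that link presynaptic neurexins to postsynaptic receptors, differed by member. Cbln1 and Cbln3 were higher in cerebellum, by 6.78 ± 0.23 and 11.99 ± 0.20, and together with Cbln2 and Cbln4 they showed no overlap of the regions. Cbln2 had 0.544, 1.09, 0.825 and 18.7 CPM in cerebella and 161, 90.6, 126 and 158 CPM in cortices, where the 18.7 CPM of mouse 20 made up most of the cerebellar mean. The difference of -4.99 ± 0.41 became -7.39 without mouse 20. Cbln3 took 73.7 ± 0.0879% in the cerebellum and 0.0755 ± 0.122% in the cortex of the 4 cerebellin genes per kilobase, and Cbln2 0.718 ± 1.23% in the cerebellum and 81.3 ± 4.57% in the cortex. Among the 17 genes of the list with neurexins and their partners, 5 were higher and 11 lower, with a median of -0.46 (-0.29 with scaling by library size alone). The neurexin gene Nrxn3 was higher (0.78 ± 0.07), and Nrxn2 had 249.9 ± 17.7 CPM in cerebellum and 203 ± 8.71 CPM in cortex (adjusted p = 0.115). Leaving out mouse 12 gave a difference of 6.17 for Cbln1. With mouse 14 left out, the value was 13.15 for Cbln3.

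The release machinery shifted between isoforms. Of 21 synaptotagmin, complexin and related genes, 5 were higher in cerebellum and 12 lower, with a median of -0.57. Syt2, a fast calcium sensor of hindbrain synapses, had 337 ± 19.8 CPM in cerebellum and 48.6 ± 15.2 CPM in cortex, a difference of 2.69 ± 0.14, and Syt9 differed by 3.31 ± 0.18. Syt1, the fast sensor of forebrain synapses, was lower (488 ± 15.0 CPM in cerebellum and 1409.5 ± 48.2 CPM in cortex, difference -1.70 ± 0.06). Stx1a, a plasma membrane SNARE gene, had 2.36, 3.65, 2.20 and 4.84 CPM in the cerebellum of mice 12, 14, 17 and 20 and 399, 334, 412 and 410.5 CPM in the cortex of the same mice, so that the cerebella lay far below every cortex. Among transmitter transporters, Slc1a6, the Purkinje cell glutamate transporter EAAT4, was higher (4.94 ± 0.10), as was the glial Slc1a3 (1.00 ± 0.07), whereas Slc1a2, the main forebrain astrocyte transporter GLT-1, was lower (540.0 ± 52.5 CPM in cerebellum and 1917 ± 84.6 CPM in cortex, difference -2.01 ± 0.08). Slc17a6 had 16.7, 21.9, 19.8 and 70.3 CPM in cerebella and 17.2, 32.1, 26.1 and 23.6 CPM in cortices. It did not pass with all 4 mice (0.03 ± 0.27, adjusted p = 0.94), and was lower in cerebellum without mouse 20 (-0.51).

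The pathway from metabotropic glutamate receptors to calcium stores was higher in cerebellum at most of its steps. Of 20 genes, 13 were higher and 5 lower, with a median of 1.74. Purkinje cells use this pathway for slow synaptic currents and for long-term depression. The phospholipases Plcb3 and Plcb4 differed by 1.69 ± 0.09 and 1.81 ± 0.15, the IP3 receptor gene Itpr1 by 1.79 ± 0.08, and the IP3 phosphatase gene Inpp5a by 2.83 ± 0.08. Itpr1 had 1188, 1187, 1292 and 1165 CPM in the cerebellum of mice 12, 14, 17 and 20 and 353, 248, 319 and 327 CPM in the cortex of the same mice. The protein kinase C genes split: Prkcd was higher (2.57 ± 0.09), and Prkca, Prkcb and Prkce lower (-1.50 ± 0.08, -1.38 ± 0.09 and -0.93 ± 0.06). Several genes of this list, among them Car8, Rgs8 and Homer3, are also on the Purkinje cell list.

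Calmodulin-linked signalling lay on the cortical side. Of 27 calcium and calmodulin genes, 20 were lower in cerebellum and 7 higher, with a median of -0.96. Besides Camk2a and Nrgn, the lower ones included Hpcal4 and Hpca, neuronal calcium sensors (-4.97 ± 0.16 and -3.62 ± 0.12). Camk2b, the beta subunit gene, was lower by less (-0.23 ± 0.06) and did not pass with scaling by library size alone or with the hippocampus libraries in the fit, and Camk2d was higher (1.42 ± 0.17). Per kilobase, Camk2a took 8.75 ± 1.64% in the cerebellum and 72.7 ± 1.96% in the cortex of the kinase II genes, and Camk2b 61.7 ± 2.61% in the cerebellum and 16.9 ± 1.61% in the cortex. The 7 that were higher in cerebellum comprised the buffers Calb1, Calb2 and Pvalb, the sensor Hpcal1 (3.28 ± 0.26), the kinases Camk2d and Camk4 (1.16 ± 0.10), and Pcp4 (0.40 ± 0.11).

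Hedgehog pathway genes were mostly higher in cerebellum, where Purkinje cells release the ligand and precursors and glia respond during growth. Of 11 tested, 8 were higher and 1 lower, with a median of 0.90. The ligand gene Shh had 6.53 ± 1.59 CPM in cerebellum and 3.35 ± 1.13 CPM in cortex (difference 0.86 ± 0.22), its receptor gene Ptch1 156 ± 5.22 CPM in cerebellum and 38.8 ± 3.88 CPM in cortex (1.82 ± 0.08), and the target and effector gene Gli1 4.29 ± 0.606 CPM in cerebellum and 0.675 ± 0.344 CPM in cortex (2.32 ± 0.30). The coreceptor genes Boc, Cdon and Gas1 differed by 1.90, 2.01 and 1.39, and Gli3, which encodes the repressor form, was lower (-0.72 ± 0.13).

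Ion channels split between the regions. Of 41 potassium channel genes tested, 14 were higher in cerebellum and 24 lower, with a median of -0.58. Kcnc1, a Kv3 gene of the kind that lets neurons fire at high rates, had 589 ± 78.8 CPM in cerebellum and 184 ± 22.9 CPM in cortex, a difference of 1.51 ± 0.11. The modifier subunit gene Kcng4 differed by 3.58 ± 0.18, and the leak channel genes Kcnk10 and Kcnk3 by 2.81 ± 0.12 and 2.25 ± 0.08. On the cortical side, Kcnv1 was accompanied by the inward rectifier gene Kcnj4 (-7.85 ± 0.26), Kcnf1 (-6.72 ± 0.21), Kcnh3 (-6.63 ± 0.13) and the M-current gene Kcnq5 (-5.63 ± 0.15). Kcnc2, the Kv3 gene of cortical fast-spiking interneurons, was lower in cerebellum (-3.51 ± 0.26), so the Kv3 genes did not move as 1 group. Of 29 sodium, calcium and HCN channel genes, 9 were higher and 15 lower, with a median of -0.35 (-0.18 with scaling by library size alone). Cacna1a, the P/Q-type calcium channel gene, and Cacna1g, a T-type gene of Purkinje cells, were higher (1.10 ± 0.07 and 1.72 ± 0.09), and Scn3a, Scn3b and Cacna1h were lower (-3.61 ± 0.22, -4.15 ± 0.22 and -3.89 ± 0.22). Without mouse 20, the fitted difference was -8.49 for Kcnj4, -7.52 for Kcnf1 and -4.18 for Kcnc2.

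Neuropeptides and the receptors of modulatory transmitters were mostly lower in cerebellum. Of 20 neuropeptide and granin genes tested, 18 were lower in cerebellum, 12 beyond 2-fold, with a median of -3.11. Cck, the cholecystokinin gene, had 26.8, 24.6, 18.1 and 23.7 CPM in the cerebellum of mice 12, 14, 17 and 20 and 178, 216, 173 and 215 CPM in the cortex of the same mice, a difference of -3.23 ± 0.10 (adjusted p = 2.66e-11). Npy and Pdyn, the genes of neuropeptide Y and of the dynorphins, differed by -3.14 ± 0.13 and -6.31 ± 0.36. Chgb, a granin of secretory vesicles, and Nxph4, a neurexin ligand, were the 2 higher in cerebellum (0.64 ± 0.07 and 2.67 ± 0.22). Of 26 receptor genes for monoamines, acetylcholine, adenosine and cannabinoids, 21 were lower and 3 higher, with a median of -2.82. Chrm1, the M1 muscarinic receptor gene, had 0.544, 0.182, 0 and 2.64 CPM in cerebella and 204, 180.1, 230.1 and 199 CPM in cortices, a difference of -8.05 ± 0.26. Htr2a, the serotonin receptor gene of cortical pyramidal cells, differed by -4.77 ± 0.25, Adrb1, a noradrenaline receptor gene, by -3.80 ± 0.16, and Drd1, a dopamine receptor gene that is also on the striatal list, by -7.14 ± 0.32. Cnr1, the cannabinoid receptor gene, was higher in cerebellum (709.7 ± 55.1 CPM in cerebellum and 234 ± 42.6 CPM in cortex, difference 1.44 ± 0.09), as were the serotonin receptor gene Htr1b (0.84 ± 0.20) and the nicotinic subunit gene Chrnb2 (0.41 ± 0.07). The fit without mouse 20 gave -8.48 for Pdyn, -9.60 for Chrm1, -5.65 for Htr2a and -8.39 for Drd1.

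Immediate early genes, which neurons switch on within minutes of activity, were lower in cerebellum in 13 of 20 cases and higher in 3, with a median of -1.55. The Egr family and Arc were among them: Arc, which tags active synapses, had 32.3, 29.3, 29.1 and 31.9 CPM in the cerebellum of mice 12, 14, 17 and 20 and 485, 485, 463 and 579.5 CPM in the cortex of the same mice, a difference of -4.20 ± 0.08 (adjusted p = 8.76e-13), and Egr1 and Egr2 differed by -3.36 ± 0.12 and -6.02 ± 0.42. The 3 that were higher in cerebellum were Jun, Dusp1 and Ier2 (0.42 ± 0.13, 0.36 ± 0.12 and 0.66 ± 0.13). The number called higher was 5 without mouse 14 and 1 without mouse 17. Jun did not pass without mouse 12 or 17, nor Dusp1 without mouse 17 or 20 or without both mice 14 and 20. With no mouse block, the adjusted p was 0.0991 for Jun and 0.0700 for Dusp1, and with the hippocampus libraries in the fit it was 0.215 and 0.203. Fos had 33.0, 60.1, 47.6 and 57.6 CPM in the cerebellum of mice 12, 14, 17 and 20 and 35.7, 54.1, 34.6 and 23.8 CPM in the cortex of the same mice. Its regions overlapped, and it did not pass (0.22 ± 0.16, adjusted p = 0.254). Leaving out mouse 14 gave a difference of -5.33 for Egr2. With mouse 17 left out, the value was -6.66 for Egr2. Without mouse 20, the fitted difference was -6.72 for Egr2.

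Glial genes differed by cell type. All 18 microglia genes were lower in cerebellum and beyond 2-fold, with a median of -1.88 against 10.1% of all genes beyond 2-fold in that direction. Their summed level was 199 to 219 CPM in the cerebella and 581 to 695.5 CPM in the cortices. Cx3cr1, the fractalkine receptor gene, had 13.2, 15.1, 14.0 and 15.2 CPM in the cerebellum of mice 12, 14, 17 and 20 and 66.2, 57.0, 54.0 and 58.6 CPM in the cortex of the same mice, and P2ry12, a purine receptor gene of resting microglia, 11.4, 12.2, 8.80 and 9.89 CPM in the cerebellum of mice 12, 14, 17 and 20 and 48.8, 45.6, 41.4 and 41.3 CPM in the cortex of the same mice. No cerebellum reached the lowest cortex in either, with differences of -2.21 ± 0.10 and -2.23 ± 0.10 (adjusted p = 9.96e-10 and 1.39e-09). The largest was Fcrls (-3.04 ± 0.17). Genes of oligodendrocyte precursors were lower in 9 of 12 cases and higher in 1, with a median of -0.87, among them Cspg5 (-1.94 ± 0.07) and Pdgfra (-1.24 ± 0.18). Myelin genes of mature oligodendrocytes were less divided, with 6 of 17 higher, 2 lower and a median of 0.17 (0.35 with scaling by library size alone). The 6 became 3 without mouse 17 or mouse 20, and the 2 became 1 without mouse 12 or mouse 14. Klk6, a myelin-linked protease gene, was higher (2.58 ± 0.18). Of 13 endothelial genes, 10 were lower, none beyond 2-fold, with a median of -0.31 (-0.14 with scaling by library size alone), and 6 were lower without mouse 12.

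Astrocyte genes were split between higher and lower. Of 25 tested, 16 were higher in cerebellum and 7 lower, with a median of 0.24 (0.41 with scaling by library size alone). Agt, the angiotensinogen gene, Sparc, a matrix protein gene, and Aqp4, the water channel gene, were higher (3.51 ± 0.21, 2.06 ± 0.09 and 1.59 ± 0.10). Lhx2, Slc1a2 and Mfge8 were lower (-6.86 ± 0.31, -2.01 ± 0.08 and -1.48 ± 0.09), and Gfap was higher by less (196 ± 29.6 CPM in cerebellum and 124 ± 42.5 CPM in cortex, difference 0.51 ± 0.17, adjusted p = 0.0173). Gfap did not pass without mouse 17 or without mouse 20, with DESeq2, or with the hippocampus libraries in the fit. Of 5 choroid plexus genes tested, 4 were higher in cerebellum, but the summed level was 1935 CPM in mouse 14 and 861.6 CPM in mouse 20 and 164.6 and 184 CPM in mice 12 and 17. Without mouse 14, 2 of the 5 were called higher. Ttr differed by 3.48 ± 0.91 with all 4 mice (adjusted p = 0.00491), by 2.14 without mouse 14, where it did not pass, as it did not with DESeq2, and by 4.18, 4.41 and 2.72 without mouse 12, 17 or 20. Without both mice 14 and 20 it was lower in cerebellum, by -0.80. Most ribosomal protein genes were slightly lower in cerebellum, 26 of 28 tested, none beyond 2-fold, with a median of -0.48 (-0.31 with scaling by library size alone). Of 12 mitochondrially encoded genes, 10 were lower, with a median of -0.73. The fit without mouse 20 gave -8.18 for Lhx2.

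The region differences were repeated in 3 other naive mice labelled 18 months. In these, 9170 of 16085 genes passed (57.0%) and 2408 were beyond 2-fold (15.0%). Of the 2554 genes beyond 2-fold in young mice, 2475 were tested at 18 months, 2474 had the same direction, 2454 passed in that direction and none passed in the other. Of all 10107 genes called in young mice, 10002 were tested, 98.7% had the same direction, 8050 passed in it and 4 passed in the other. All 24 genes with the largest differences passed again, and each was higher in the same region in all 25 other mice of the first experiment. Of the 2554 genes, 2314 had the same direction in all 25. The directions in the 25 mice are those of CPM, without TMM factors. Gabra6 differed by 14.44 at 18 months, on a fit whose size depends on the prior count where a region is near 0.

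A test of whether the region difference itself changed with age, over the 7 naive mice, called 7 of 16709 genes (0.0419%), and 1227 had an unadjusted p under 0.05. They included C1qc, Ctss, Cyth4, Rprml, Necab3 and Slc2a13. The complement gene C1qc had 10.4 ± 1.38 CPM in young cerebella and 24.9 ± 1.77 CPM (n = 3) in 18-month cerebella, against 37.6 ± 5.10 and 42.4 ± 1.98 CPM in cortices, so that its difference went from -2.04 to -0.95 (adjusted p of the change = 0.0434). The lysosomal protease gene Ctss went from -1.50 to -0.30 (adjusted p = 0.0483). The adjusted p of the 7 genes lay between 0.0434 and 0.0499, close to the threshold, and the calls changed with 1 mouse left out. None of the 7 genes passed without mouse 6, 9 or 17, and 1 passed without mouse 3 (Ctss), 12 (Slc2a13) or 14 (Necab3), while without mouse 20 all 7 passed among 19. All 18 microglia genes had a smaller difference at 18 months, as did 7745 of the 15513 genes tested at both ages, and the microglia median was -1.14, against -1.88 in young mice. Those 18 genes share cells and the 4 young mice, and 2 of them, C1qc and Ctss, were among the 7 called for a change with age. At 18 months all 18 were still on the lower side in cerebellum, and 17 passed. Granule cell genes had a median of 4.95 at 18 months and 5.00 in young mice. A smaller difference at 18 months was also found for 25 of 28 ribosomal protein genes, none of them called for a change with age.

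**Figure D5:**
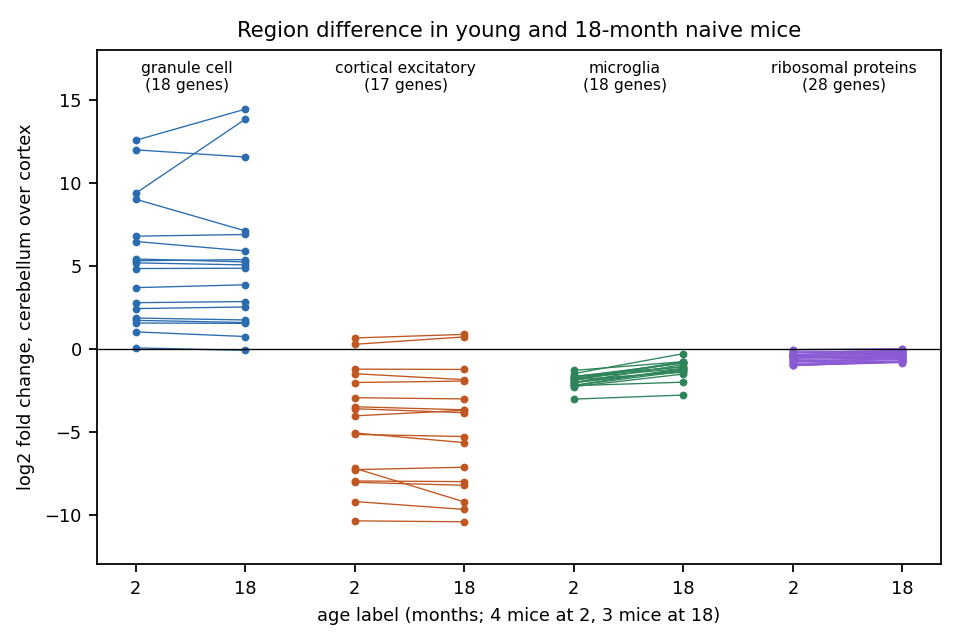
Log2 fold change of cerebellum over cortex for each gene of 4 lists, at the age labels 2 months (4 mice) and 18 months (3 mice), with a line joining the points of 1 gene. The microglia points lie nearer 0 at 18 months for all 18 genes (medians -1.88 and -1.14), of which 2 were called for a change with age, and 7745 of 15513 genes tested at both ages had a smaller difference. Of the 28 ribosomal protein genes, 25 also lay nearer 0 at 18 months, none of them called for a change. The granule cell and cortical excitatory lists had medians of 4.95 and -3.86 at 18 months. Values beyond 8 in size rest on few or no counts in 1 region.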

How the data were processed

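The 8 libraries are mRNA-seq of homogenised tissue: RNeasy extraction, Smart-Seq2 cDNA and Nextera XT libraries, per the labels' protocols, a kit that does not mark strand. The authors deposited 1 table of raw counts per gene symbol. Trim Galore 0.3.7, STAR 2.5.3a, DESeq2 and GRCm38 are named in the submitters' processing notes, and the counting tool and annotation are not given in the sources used here.

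Counts were tested with edgeR 4.0.16 (R 4.3.3, limma 3.58.1): filterByExpr with a minimum count of 10 and total of 15, TMM factors, glmQLFit with mouse and region, glmQLFTest with Benjamini-Hochberg adjustment at 0.05, and glmTreat against 2-fold. DESeq2 1.42.0 and other scalings, filters and left-out mice were alternatives. Pairs come from the animal number in the labels. The correlation of deviations was 0.0790, 0.103, 0.101 and -0.00636 for mice 12, 14, 17 and 20. Gene positions are GENCODE, and sequences RefSeq GRCm38.p6. Named are the 12 genes per direction with the largest difference beyond 2-fold, non-overlapping libraries and at least 20 CPM, and members of gene lists, and some such genes are not reported here. The members and lists were chosen with earlier results of these data known. Where a region had no count, a floor of 3 counts over its libraries gives a lower bound of the fold. Such intervals and floors cover counting error only. The fit was run on simulated data of 15669 genes, nearly all of them unchanged and without a mouse effect. It recovered 87 of 98 genes changed 2-fold (88.8%) and all 100 changed 4-fold, of which 92 passed the test against 2-fold. Most genes differ in the real data, so the simulation does not test the scaling.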

Additional observations from a re-analysis of the deposited data

Results flagged for a closer look

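In 53 of the 371 groups of 4 libraries checked (the cerebella or the cortices, for 196 genes named here), the highest or lowest CPM stood apart from the other 3 by Dixon's criterion. The criterion is set to flag about 1 in 20 groups by chance, but that rate is no reference for these genes. They share the same libraries, and some were named because a library stood apart. A gene with counts in only 1 of the 4 libraries is always flagged. The gap criterion reads differences of a single count as well, where the other 3 libraries are at 0. In the cerebellum of mouse 12, the highest of the 4, Lrrc10b had 0.181 CPM against 0. In the cerebellum of mouse 14, the highest of the 4, Crym had 0.182 CPM against 0, Cux2 had 47.9 CPM against 45.6 to 45.9, Necab3 had 55.2 CPM against 42.3 to 44.4 and Trh had 0.182 CPM against 0. In the cerebellum of mouse 17, the lowest of the 4, Syt1 had 466 CPM against 494 to 499. In the cerebellum of mouse 20, the highest of the 4, Camk2a had 114 CPM against 76.2 to 80.6, Cbln2 had 18.7 CPM against 0.544 to 1.09, Cnih3 had 15.4 CPM against 3.10 to 4.90, Dbh had 7.25 CPM against 0 to 0.182 and Ddn had 0.220 CPM against 0. There too, Grm5 had 27.9 CPM against 7.80 to 9.84, Hpcal4 had 49.9 CPM against 25.3 to 29.0, Htr2a had 5.06 CPM against 0.729 to 1.45, Kcnv1 had 0.440 CPM against 0 and Meis2 had 19.6 CPM against 3.63 to 6.32. Also highest in that library, Nrgn had 26.8 CPM against 0.907 to 2.55, Pdyn had 1.32 CPM against 0 to 0.181, Rgs14 had 0.220 CPM against 0, Scn3a had 9.45 CPM against 3.28 to 3.81 and Slc17a6 had 70.3 CPM against 16.7 to 21.9. Of the same kind, Slc6a2 had 6.38 CPM against 0 to 0.275. In the cerebellum of mouse 20, the lowest of the 4, Cacna1a had 211 CPM against 241 to 244, Ppp1r17 had 216 CPM against 264 to 270 and Zic1 had 202 CPM against 273 to 276. In the cortex of mouse 12, the highest of the 4, Meis2 had 123 CPM against 99.6 to 101. In the cortex of mouse 14, the highest of the 4, Agt had 13.7 CPM against 4.65 to 5.51, Cacng5 had 21.9 CPM against 7.60 to 8.67, Calb2 had 19.8 CPM against 7.03 to 8.31, Camk2d had 236 CPM against 102 to 106 and Cdhr1 had 14.4 CPM against 0.380 to 1.97. There too, Cnpy1 had 0.0979 CPM against 0, Dusp1 had 77.5 CPM against 54.5 to 56.7, En2 had 0.294 CPM against 0, Gabra6 had 0.196 CPM against 0 and Gabrb1 had 144 CPM against 123 to 125. Also highest in that library, Hpcal1 had 102 CPM against 20.9 to 29.3, Lhx1 had 0.0979 CPM against 0, Lhx1os had 0.0979 CPM against 0, Nrxn2 had 216 CPM against 197 to 200 and Ppp1r17 had 0.196 CPM against 0. Of the same kind, Sparc had 173 CPM against 131 to 136 and Trh had 8.62 CPM against 0.570 to 1.27. In the cortex of mouse 14, the lowest of the 4, Gria2 had 764 CPM against 815 to 824, Grin1 had 361 CPM against 474 to 495, Homer1 had 204 CPM against 259 to 261, Inpp5a had 47.3 CPM against 57.2 to 58.8 and Kcnh3 had 99.1 CPM against 132 to 138. There too, Stx1a had 334 CPM against 399 to 412 and Tbr1 had 77.4 CPM against 88.2 to 90.1. In the cortex of mouse 17, the highest of the 4, Syt1 had 1480 CPM against 1380 to 1400 and Zic4 had 2.77 CPM against 1.71 to 1.86. In the cortex of mouse 20, the lowest of the 4, Gli3 had 12.0 CPM against 15.4 to 15.9.

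The region difference itself differed between the age labels for 7 genes by the region by age term of edgeR's quasi-likelihood test. For 6 of them the change, 18-month minus young difference on the log2 scale, was 1.08 for C1qc, 1.20 for Ctss, 1.51 for Cyth4, -1.17 for Necab3, 1.84 for Rprml and -0.90 for Slc2a13. C1qc and Ctss are genes of microglia. None of the 7 passed in every fit that left out 1 mouse.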

How the results depend on the processing

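The count of genes called in young mice ranged from 8222 (DESeq2) to 11422 (no filter on low counts) over 15 alternatives, against 10107, and from 8994 to 9756 with 1 mouse left out. With no mouse block, so without the pairing, 10061 genes were called, 9879 of them shared, and the 18-month count was 9392 against 9170. Of 187 named genes called, 178 kept direction and the call against no difference under all 15. Of 155 beyond 2-fold, 154 kept that direction and call, and whether they stayed beyond 2-fold was not counted. Over all genes, DESeq2 kept 1866 of the 2554 beyond 2-fold and limma-voom 2244. Leaving out mice 14 and 20 together, and 1 mouse at a time from the 18-month and age fits, was chosen after seeing the data. Without mice 14 and 20, Ttr turned to -0.80. The genes called for a change of the region difference with age numbered 0 to 19 with 1 mouse left out, against 7, and the cause was not tested. Genes whose small differences changed sign had not passed with all 4 mice. With 1 mouse left out, the difference ran from -0.025 to 0.41 for Fos, -0.024 to 0.085 for Gad2, -0.063 to 0.16 for Rbfox3 and -0.51 to 0.32 for Slc17a6. Without mice 14 and 20 it was -0.025 for Fos, -0.070 for Gad2 and -0.36 for Slc17a6. Slc17a6 was -0.038 with DESeq2 and -0.026 with libraries thinned to the smallest total. Depth limits genes at 0: 3 counts over the 4 libraries are 0.156 CPM in cerebellum and 0.0864 CPM in cortex.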
